A study of Mus musculus with 9 samples.

Results

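The claudins and cadherins described here were all the genes whose probes carry the name Cldn or Cdh followed only by digits on a mouse 2-colour Agilent array. They were taken by name, with earlier results of these data known. They comprised 44 genes (21 claudins with 23 probes and 23 cadherins with 42 probes) among 41174 probes. Of all probes, 26835 were bright enough to test and gave 18400 genes. Protocadherins, desmosomal cadherins and claudin-domain genes with other names were outside the rule, as was 1 probe under an older clone name that now belongs to Cdh18. Of the 44 genes, 26 were tested, 15 claudins and 11 cadherins.

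The 9 arrays held RNA of freshly isolated mammary tumour cells sorted for absence of green fluorescent protein. On 5 arrays they had received Fzd8-CRD, a soluble form of the cysteine-rich domain with which the receptor Frizzled 8 binds Wnt ligands, and on 4 arrays they were controls. The labels give both MMTV Wnt-1 and MMTV-Her2 tumours for every array in both groups. Both models are transgenic, with Wnt-1 or the receptor Her2 expressed from the MMTV promoter, which is active in mammary epithelium. Both groups therefore carry a transgene, and the models could not be separated. What the control cells received, which cells carried the fluorescent protein, and the age and strain of the mice are not given in the sources used here. The design text calls the arrays biological replicates.

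Claudins are membrane proteins with 4 transmembrane segments that form the strands of tight junctions, where they seal the space between neighbouring cells or form pores in it. Classical cadherins hold neighbouring cells together through calcium-dependent contacts and bind catenins inside the cell. One of these, beta-catenin, is also the effector of canonical Wnt signalling. Mammary luminal epithelium is known for E-cadherin and several claudins, basal cells for P-cadherin, and endothelium for VE-cadherin and claudin-5.

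Values are log2 ratios of the cells' RNA, labelled with Cy5, over a reference RNA, labelled with Cy3. The labels describe that reference in conflicting ways. A difference is Fzd8-CRD minus control in log2 units, with the standard error (SE) of the limma fit and a Benjamini-Hochberg adjusted p over the 18400 genes. A gene is said to have risen or fallen where that p was under 0.05. Ratios of different genes were not compared with each other, since probes differ in brightness. The exception is Cldn4 and Cldn3, whose difference within each array was set side by side between the groups.

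Several facts of the whole series touch these values. All 4 control arrays lay on 1 slide and were scanned together, while the 5 arrays of treated cells were spread over 4 slides of their own, with scans 367 and 378 days later, so slide and treatment cannot be told apart. Fewer probes were well above background on Fzd8-CRD arrays, 52.5% to 60.0% in Cy5 against 63.8% to 70.8% on control arrays, and of the 65 member probes 21 to 27 against 32 to 36. Read in Cy3 alone, the reference RNA gave a difference past the threshold for 58.9% of genes. For the members the Cy3 signal was higher for 1 and lower for 7 of the 15 claudins tested, and higher for 3 and lower for 3 of the 11 cadherins, against 26.9% higher and 32% lower over all genes. Control replicate 2 correlated at 0.617 to 0.736 with the other 8 arrays, against 0.898 to 0.979 among the other controls and 0.892 to 0.976 among the Fzd8-CRD arrays. The epithelial markers Epcam and Krt8 were well above background on all 9 arrays, with log2 ratios of 3.38 ± 0.50 (SD, n = 5) in Fzd8-CRD cells and 3.64 ± 0.23 (SD, n = 4) in controls for Epcam.

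The upstream sequences of 4 claudins are shown because they pair the chromosomal neighbours Cldn4 and Cldn3 with Cldn5 and Cldn1. After loess normalization the ratios of Cldn4, Cldn5 and Cldn1 were lower in Fzd8-CRD cells, while that of Cldn3 did not pass the threshold. By the scanner software's own log ratio, Cldn4 and Cldn3 were both higher, short of the threshold. Each line is the 250 bases before the annotated start, 5′ to 3′, from RefSeq on GRCm38.p6, at chr5:134946935-134947184 on the minus strand for Cldn4, chr5:134985964-134986213 on the plus strand for Cldn3, chr16:18776597-18776846 on the plus strand for Cldn5 and chr16:26371840-26372089 on the minus strand for Cldn1. Capitals mark the E-box CAGGTG on either strand, the core bound by Snail, Zeb and other factors.
Cldn4: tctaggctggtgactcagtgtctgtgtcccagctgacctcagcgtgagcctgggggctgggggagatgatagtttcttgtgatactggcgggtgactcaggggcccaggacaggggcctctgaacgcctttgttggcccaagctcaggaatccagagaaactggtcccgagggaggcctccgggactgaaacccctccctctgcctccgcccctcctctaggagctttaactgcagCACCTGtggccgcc
Cldn3: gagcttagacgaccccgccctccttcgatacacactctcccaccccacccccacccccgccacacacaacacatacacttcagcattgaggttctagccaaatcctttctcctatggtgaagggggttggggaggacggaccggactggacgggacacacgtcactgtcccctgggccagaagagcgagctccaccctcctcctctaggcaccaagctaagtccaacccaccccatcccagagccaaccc
Cldn5: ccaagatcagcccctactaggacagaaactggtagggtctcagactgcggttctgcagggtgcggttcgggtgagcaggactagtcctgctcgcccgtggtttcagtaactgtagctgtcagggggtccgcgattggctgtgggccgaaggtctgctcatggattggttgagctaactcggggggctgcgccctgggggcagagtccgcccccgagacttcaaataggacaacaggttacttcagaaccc
Cldn1: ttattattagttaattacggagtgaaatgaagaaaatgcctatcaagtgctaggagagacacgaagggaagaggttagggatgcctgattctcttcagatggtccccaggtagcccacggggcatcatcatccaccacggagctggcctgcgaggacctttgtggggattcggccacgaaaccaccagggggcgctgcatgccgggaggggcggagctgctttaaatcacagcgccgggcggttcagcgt
Among these 4 windows, the E-box was in that of Cldn4, where it reads CACCTG on the strand shown and begins at base -14. Over both families, 40 windows of 30 genes matched RefSeq entries. Cdh1, Cdh3, Cdh5 and Cldn23 were among the genes with no window, so they were not searched. The E-box was in 6 of the 40, those of Cldn4, Cldn6, Cldn7, Cldn14 and Cdh7, against 17.2% of 32851 windows of all genes. The TCF/LEF motif CTTTGAT, searched on both strands, was in 1 of the 40, that of Cldn18, against 3.21% of all windows. These matches say only which letters are in the windows.

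The ratios of several claudins were lower in Fzd8-CRD cells, in part depending on how background and dye were corrected. Cldn1, Cldn4, Cldn5, Cldn10, Cldn11, Cldn15 and Cldn23 fell, although Cldn1, Cldn4 and Cldn23 were higher, short of the threshold, by the scanner software's own background-subtracted log ratio. That is 7 of the 15 tested, where 7.78% of all genes fell, and 0 rose, where 6.73% of all genes rose. The same 7 were the claudins whose groups did not overlap with Fzd8-CRD below control, which held for 11.7% of all genes, and for 0 claudins did they lie apart with Fzd8-CRD above, which held for 7.98%. Counted by probe, 8 of 16 claudin probes fell and 0 rose, against 7.84% and 6.77% of all probes. The count over tested genes depends on the brightness filter, which 3 claudins (Cldn11, Cldn13 and Cldn19) passed only through control arrays. Of the 11 claudins well above background on all 9 arrays, 6 fell and 0 rose, against 8.72% and 7.07% of the 13852 such genes. Their median difference was -1.30, against -0.052. The plot of claudins by array shows the values behind these counts.

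**Figure D1:**
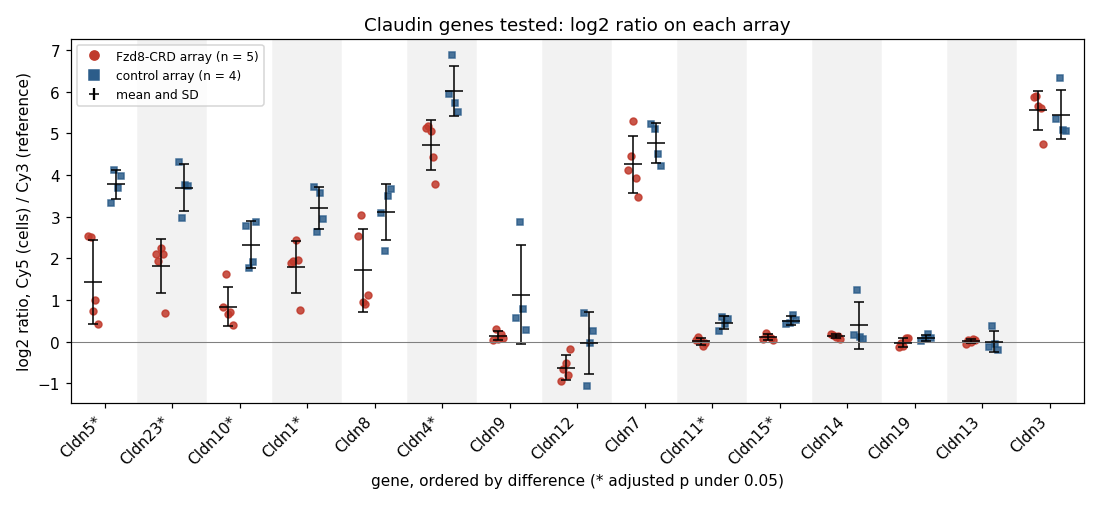
Log2 Cy5/Cy3 ratio (vertical axis) of the 15 claudins tested on each array, 5 Fzd8-CRD arrays (circles, left) beside 4 control arrays (squares, right), with the mean and SD, ordered by difference. Asterisks mark the 7 genes that fell, whose groups do not overlap, although Cldn1, Cldn4 and Cldn23 turned higher with the scanner's own log ratio (by 0.050, 0.88 and 0.20).

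Cldn4, a barrier claudin of glandular epithelium, was measured by a probe at chr5:135230104-135230163 on the minus strand of mm8. Its log2 ratio was 5.12, 5.17, 5.07, 4.44 and 3.78 on the Fzd8-CRD arrays, against 5.94, 6.87, 5.74 and 5.52 on the control arrays. The groups did not overlap, with Fzd8-CRD replicate 5 lowest and control replicate 2 highest. The difference was -1.30 (SE 0.35, adjusted p = 0.0384), or 2.47-fold. In bulk RNA of sorted cells, fewer cells of a type and less RNA per cell cannot be told apart. Cy5 alone gave -2.04 (adjusted p = 0.00289), while the reference in Cy3 was also lower, by -1.19 (adjusted p = 4.12e-07). This call was the least stable of the 7. It passed in 9 of 23 alternative settings, and the difference was 0.88 by the scanner's ratio (adjusted p = 0.0535) and 0.94 after scaling between arrays (adjusted p = 0.259). Leaving out 1 array gave -1.47 to -1.02, and the call was lost without Fzd8-CRD replicate 1, 2, 4 or 5 or control replicate 1, 2 or 3.

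Cldn3, a closely related barrier claudin and the next protein-coding gene to Cldn4, was measured at chr5:135271936-135271995 on the plus strand, 41.8 kb from the Cldn4 probe. It read 5.87, 5.91, 5.65, 5.60 and 4.75 on the Fzd8-CRD arrays, against 5.34, 6.31, 5.09 and 5.05 on the control arrays. The groups overlapped, and the difference was 0.11 (SE 0.31, adjusted p = 0.841, 95% interval -0.60 to 0.81). Its reference signal was lower by -1.05 in Cy3 (adjusted p = 0.000346), as it was for Cldn4. Within each array, the log2 ratio of Cldn4 minus that of Cldn3 was -0.84 ± 0.23 (SD, n = 5) in Fzd8-CRD cells and 0.57 ± 0.075 (SD, n = 4) in controls. These values ran from -1.17 to -0.58 and from 0.47 to 0.65. The pair was chosen after its values were seen and is given with no test. Cy5 alone gave -1.33 for the same difference, whereas with the scanner's log ratio both genes were higher in Fzd8-CRD cells, Cldn4 by 0.88 and Cldn3 by 0.65.

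Cldn7, a claudin also found along the sides of epithelial cells, read 4.13, 4.46, 5.31, 3.92 and 3.47 on the Fzd8-CRD arrays, against 5.23, 5.11, 4.51 and 4.21 on the control arrays. Those ranges overlapped, and the difference of -0.51 (SE 0.36, adjusted p = 0.352) did not pass. Cldn8, a claudin of tight epithelia, read 2.53, 3.03, 0.96, 0.90 and 1.12, against 3.10, 2.18, 3.51 and 3.66. Fzd8-CRD replicates 1 and 2 lay within the control range and replicates 3 to 5 below it, for a difference of -1.40 (SE 0.51, adjusted p = 0.0919). Without Fzd8-CRD replicate 2 the difference was -1.73 and passed (adjusted p = 0.0433).

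Cldn23, a claudin of barrier epithelia such as gut and skin, lies at chr8:37293614-37293673 on the minus strand. It read 2.10, 1.93, 2.25, 2.11 and 0.69 on the Fzd8-CRD arrays, against 4.32, 2.97, 3.76 and 3.74 on the control arrays. Every Fzd8-CRD array was below every control, and replicate 5 stood apart from the other 4. The difference was -1.88 (SE 0.36, adjusted p = 0.0116), or 3.68-fold, and it passed in 19 of 23 alternatives. Cy5 alone gave -0.98 (adjusted p = 0.0471), and the scanner's log ratio gave 0.20 (adjusted p = 0.667).

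Cldn1, a claudin required for the skin barrier, was read by a pair of probes, the brighter at chr16:26274273-26274332 on the minus strand. The brighter one read 1.88, 1.92, 2.45, 1.95 and 0.77 on the Fzd8-CRD arrays, against 3.71, 2.64, 3.56 and 2.95 on the control arrays. Its groups did not overlap, and the difference was -1.42 (SE 0.34, adjusted p = 0.025). The second probe differed by -1.05 (SE 0.22, adjusted p = 0.0146 over all probes). In Cy3 the brighter probe was above background on 1 of 9 arrays. Cy5 alone gave -0.44 (adjusted p = 0.287), the scanner's log ratio gave 0.050 (adjusted p = 0.948), and 13 of 23 alternatives passed. The call was lost without Fzd8-CRD replicate 1 (-1.44), control replicate 1 (-1.25) or control replicate 3 (-1.30).

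Cldn10, which forms ion-selective pores, lies at chr14:118009418-118009477 on the plus strand. It read 0.83, 1.62, 0.67, 0.70 and 0.39 on the Fzd8-CRD arrays, against 2.77, 1.77, 1.91 and 2.86 on the control arrays. Fzd8-CRD replicate 2 came closest to the controls without reaching them. The difference was -1.48 (SE 0.31, adjusted p = 0.015) and passed in 20 of 23 alternatives, with -0.48 from the scanner's log ratio (adjusted p = 0.556) and -0.75 from Cy5 alone (adjusted p = 0.0511).

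Cldn11, known from myelin and from Sertoli cells, and Cldn15, a pore-forming claudin of the intestine, fell by small amounts on dim probes. Cldn11 exceeded background on 0 of 5 Fzd8-CRD arrays and all 4 control arrays. It read 0.03, 0.11, 0.01, -0.10 and -0.02 on the Fzd8-CRD arrays, against 0.26, 0.60, 0.42 and 0.54 on the control arrays. The fit gave -0.45 (SE 0.11, adjusted p = 0.027). A bound computed on the Cy5 signal came out at 1.28-fold lower in Fzd8-CRD cells. That bound sets the control mean against, on each Fzd8-CRD array, the higher of the lowest signal well above background and the probe's own signal. The probe's own signal was the higher one, so the bound equals the ratio of the group means of log2 Cy5, 6.38 in Fzd8-CRD cells and 6.74 in controls. The 1.28-fold value is therefore an estimate and not a minimum. It is open to dye bias, since no array had the dyes swapped, and Cy5 alone after quantile normalization differed by -0.29 (adjusted p = 0.0835). Cldn15 read 0.07, 0.21, 0.13, 0.09 and 0.03 on the Fzd8-CRD arrays, against 0.41, 0.45, 0.65 and 0.51 on the control arrays. Its ratio differed by -0.40 (SE 0.10, adjusted p = 0.0292), while Cy5 alone differed by -0.025 (adjusted p = 0.884) and the reference in Cy3 by 0.26 (adjusted p = 0.00214). Either call passed in 12 alternatives, of 22 for Cldn11 and 23 for Cldn15. For Cldn11 the call was lost without Fzd8-CRD replicate 1, 4 or 5 or control replicate 3 or 4 (-0.46 to -0.42), and for Cldn15 without Fzd8-CRD replicate 1, 3, 4 or 5 or control replicate 3 or 4 (-0.41 to -0.35).

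The remaining claudins tested gave no call. Cldn12, which lacks the PDZ-binding end of most claudins, read -0.95, -0.66, -0.51, -0.81 and -0.18 on the Fzd8-CRD arrays, against 0.68, -1.06, -0.02 and 0.26 on the control arrays. Control replicate 2 was the lowest of all 9, and without it the difference of -0.58 (adjusted p = 0.236) became -0.93 and passed (adjusted p = 0.0218). Cldn9 and Cldn14, both known from the inner ear, differed by -0.99 (adjusted p = 0.169) and -0.26 (adjusted p = 0.441). In both, control replicate 2 was far above the other controls, at 2.88 for Cldn9 and 1.23 for Cldn14. Without it the differences were -0.40 and 0.016, neither past the threshold. Cldn19, known from kidney and myelinating cells, differed by -0.11 (adjusted p = 0.465) and Cldn13 by 0.012 (adjusted p = 0.96), with neither above background on any Fzd8-CRD array. Cldn2, Cldn6, Cldn16, Cldn17, Cldn18 and Cldn22 were too dim to test.

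Cdh5 and Cldn5 encode VE-cadherin and the main claudin of endothelial tight junctions, and both fell more than 5.0-fold. Cdh5, read at chr8:107033388-107033447 on the plus strand, was at 2.57, 3.53, 0.68, 1.57 and 0.56 on the Fzd8-CRD arrays, against 4.15, 4.68, 4.52 and 3.96 on the control arrays. Its difference was -2.55 (SE 0.57, adjusted p = 0.0195), or 5.84-fold. A second probe, above background on 2 of 5 Fzd8-CRD arrays, differed by -1.64 (SE 0.19, adjusted p = 0.00256 over all probes). Cldn5, read at chr16:18691516-18691575 on the plus strand, was at 2.53, 2.52, 0.73, 1.00 and 0.43, against 3.32, 4.12, 3.69 and 3.97. The groups did not overlap for either gene, and in both Fzd8-CRD replicates 1 and 2 were higher than replicates 3 to 5. The difference of Cldn5 was -2.33 (SE 0.46, adjusted p = 0.0132), or 5.04-fold. Cy5 alone gave -1.56 for Cdh5 (adjusted p = 0.0249) and -1.88 for Cldn5 (adjusted p = 0.0088). With the scanner's log ratio they were -1.15 (adjusted p = 0.298) and -0.22 (adjusted p = 0.73), and the call of Cdh5 was also lost without control replicate 3 (-2.48, adjusted p = 0.0558).

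Other endothelial genes were lower on the same arrays. Of 18 endothelial markers, all tested, 17 fell and 0 rose, against 7.78% and 6.73% of all genes. The median difference of the markers was -1.77, against -0.071 over all genes. Their median log2 ratio ran from 0.24 to 1.80 on the Fzd8-CRD arrays and from 2.15 to 2.71 on the control arrays. Pecam1, the endothelial adhesion molecule CD31, fell by 1.23 (SE 0.15, adjusted p = 0.00303) and Kdr, a receptor for vascular endothelial growth factor, by 2.11 (SE 0.44, adjusted p = 0.0156). Set against each gene's mean over the 9 arrays, the marker median was -0.47, 0.17, -1.37, -1.01 and -1.43 on the Fzd8-CRD arrays, against 0.70, 1.44, 0.97 and 0.91 on the control arrays. Fzd8-CRD replicates 1 and 2 were again the highest of their group. The part of the endothelial markers in the fall of Cdh5 and Cldn5 was not tested.

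**Figure D2:**
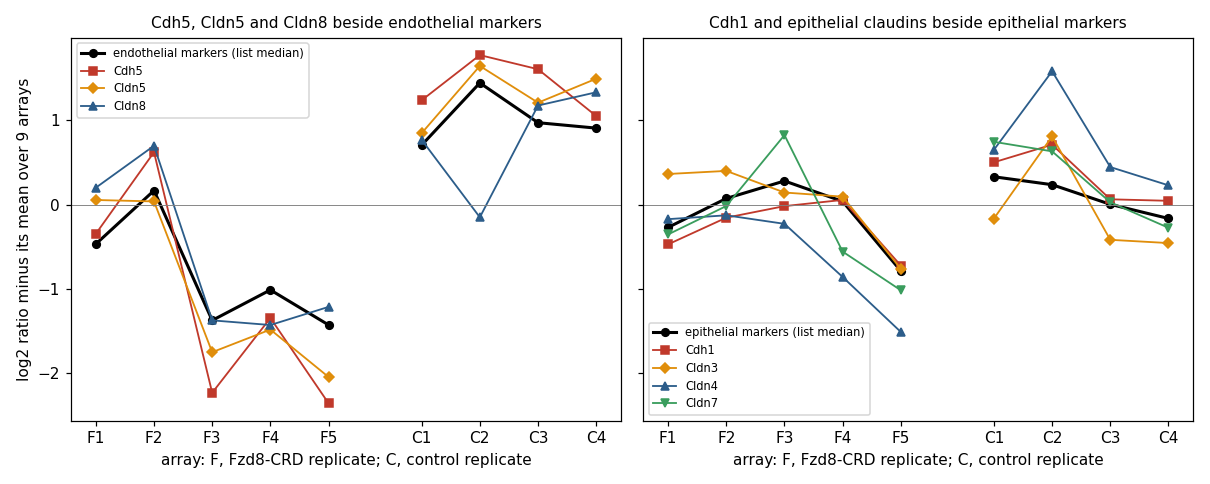
Log2 ratio minus the gene's mean over the 9 arrays (vertical axis) on Fzd8-CRD replicates 1 to 5 and control replicates 1 to 4. On the left Cdh5, Cldn5 and Cldn8 stand beside the median of the endothelial markers, with Fzd8-CRD replicates 1 and 2 above replicates 3 to 5, and on the right Cdh1, Cldn3, Cldn4 and Cldn7 stand beside the median of the epithelial markers.

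Cadherins moved in both directions and mostly did not pass. Cdh5 and Cdh15 fell and Cdh2 rose, which is 2 lower and 1 higher of the 11 tested, against 7.78% and 6.73% of all genes. Of the 9 cadherins above background on all 9 arrays, 2 fell and 1 rose, against 8.72% and 7.07% of the 13852 such genes, and their median difference was 0.093, against -0.052. Groups did not overlap, with Fzd8-CRD below control, for Cdh5, Cdh15 and Cdh24, against 11.7% of all genes. Cdh24 had passed the brightness filter only through the control arrays, so its place in that count depends on the filter.

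**Figure D3:**
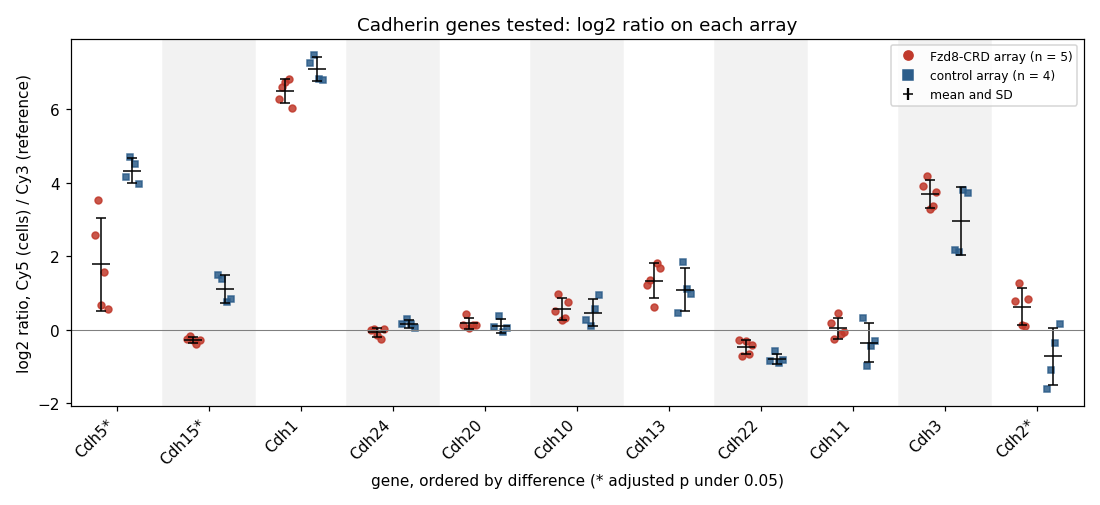
Log2 Cy5/Cy3 ratio (vertical axis) of the 11 cadherins tested on each array, 5 Fzd8-CRD arrays (circles, left) beside 4 control arrays (squares, right), with the mean and SD, ordered by difference. Asterisks mark Cdh5 and Cdh15, which fell, and Cdh2, which rose although 1 control array lies within the Fzd8-CRD range.

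Cdh1, which encodes E-cadherin of epithelial adherens junctions, was measured by 1 probe printed in 10 spots at chr8:109559041-109559100 on the plus strand. Its log2 ratio was 6.28, 6.59, 6.73, 6.80 and 6.03 on the Fzd8-CRD arrays, against 7.25, 7.46, 6.81 and 6.79 on the control arrays. Control replicate 4 alone lay within the Fzd8-CRD range, by a margin smaller than the spot SD of 0.059 to 0.186 within an array. The difference was -0.59 (SE 0.21, adjusted p = 0.0846, 95% interval -1.06 to -0.13), and Cy5 alone gave -0.28 (adjusted p = 0.512). The value was 0.34 with the scanner's log ratio and 2.37 after scaling between arrays, neither past the threshold.

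Cdh2, which encodes N-cadherin of mesenchymal and neural cells, read 0.79, 1.27, 0.14, 0.11 and 0.83 on the Fzd8-CRD arrays, against -1.61, -1.08, -0.37 and 0.15 on the control arrays. Control replicate 4 lay just above Fzd8-CRD replicates 3 and 4, so the groups overlapped. The rise was 1.36 (SE 0.37, adjusted p = 0.0404), or 2.56-fold, with 1.08 in Cy5 alone (adjusted p = 0.0536) and -0.36 in the reference. It passed in 12 of 23 alternatives and kept its direction in all 23. The call was lost without Fzd8-CRD replicate 1, 2 or 5 or control replicate 1, 2 or 3, with differences of 1.06 to 1.47. The other 2 probes of Cdh2 were too dim to test.

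Cdh3, which encodes P-cadherin of basal and myoepithelial cells and is the next protein-coding gene to Cdh1, read 3.91, 4.19, 3.28, 3.37 and 3.74 on the Fzd8-CRD arrays, against 2.17, 2.12, 3.80 and 3.71 on the control arrays. Control replicates 1 and 2 were low and replicates 3 and 4 lay among the Fzd8-CRD values. The difference was 0.75 (SE 0.40, adjusted p = 0.222), while Cy5 alone gave 1.61 (adjusted p = 0.0381) and the reference was higher by 0.37 (adjusted p = 0.0318). With the scanner's log ratio Cdh3 was higher by 1.26 and passed (adjusted p = 0.00713).

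Cdh15, which encodes M-cadherin of skeletal muscle precursors, was the most stable call of both families. It was measured at chr8:125753221-125753280 on the plus strand and read -0.24, -0.18, -0.27, -0.40 and -0.27 on the Fzd8-CRD arrays, against 1.50, 1.39, 0.75 and 0.84 on the control arrays. Every Fzd8-CRD array was below every control. The mean was -0.27 ± 0.08 (SD, n = 5) in Fzd8-CRD cells and 1.12 ± 0.38 (SD, n = 4) in controls, a fall of 2.62-fold (difference -1.39, SE 0.17, adjusted p = 0.00341). Cy5 alone gave -1.14 (adjusted p = 0.00692), and the reference differed by 0.081 (adjusted p = 0.342). It passed in all 23 alternatives, between -2.03 and -1.10, although several of them refit the same values of its single probe.

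Cdh11, a cadherin of fibroblasts and bone-forming cells, was read by 3 probes that disagreed in sign. The brightest read 0.17, -0.26, 0.46, -0.12 and -0.06 on the Fzd8-CRD arrays, against 0.32, -0.98, -0.44 and -0.29 on the control arrays, and differed by 0.39 (adjusted p = 0.308). The other probes differed by -0.28 and -0.51, neither past the threshold. Cdh13, the lipid-anchored T-cadherin, read 1.22, 1.35, 0.61, 1.81 and 1.69, against 0.44, 1.85, 1.10 and 0.97, for a difference of 0.25 (adjusted p = 0.607). Cdh22, Cdh10 and Cdh20, known mainly from the nervous system, differed by 0.32 (adjusted p = 0.133), 0.093 (adjusted p = 0.785) and 0.076 (adjusted p = 0.707). Cdh24 exceeded background on no Fzd8-CRD array and on 4 of 4 controls, and differed by -0.23 (adjusted p = 0.185). Cdh4, Cdh6, Cdh7, Cdh8, Cdh9, Cdh12, Cdh16, Cdh17, Cdh18, Cdh19, Cdh23 and Cdh26 were too dim to test.

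The 2 dyes could be set side by side for each gene tested. In Cy5 alone, 3 claudins (Cldn4, Cldn5 and Cldn23) and 2 cadherins (Cdh5 and Cdh15) fell and Cdh3 rose, where 8.77% of all genes fell and 10.1% rose. Among the genes whose ratio fell, Cldn4 had by far the largest difference in the reference, -1.19, followed by Cldn5 at -0.34. Several probes were dim in Cy3, where a small reference difference says little. They were above background in Cy3 on 3 of 9 arrays for Cdh5 and Cldn23, and 5 for Cldn5 and Cldn10. The count was 1 of 9 for Cldn1 and Cldn11 and 0 for Cldn8, against 9 for Cldn4, Cldn15 and Cdh15.

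**Figure D4:**
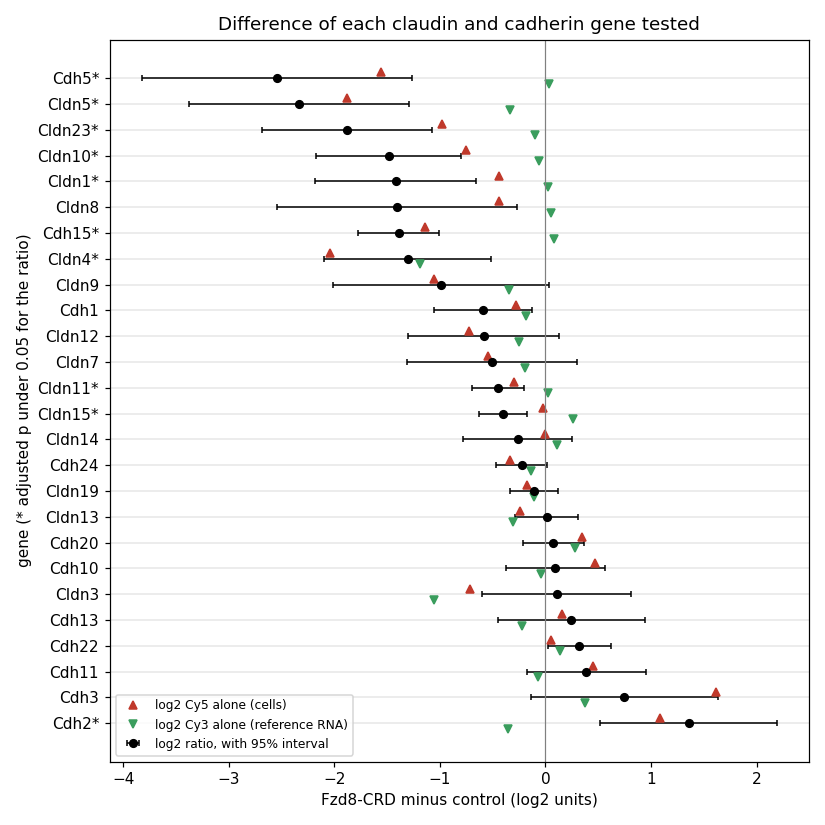
Difference of each of the 26 genes tested, Fzd8-CRD minus control in log2 units (horizontal axis), for the ratio with its 95% interval (black), for Cy5 alone (triangles pointing up) and for the Cy3 reference alone (triangles pointing down). For Cldn4 and Cldn3 the reference differs by -1.19 and -1.05, while for Cdh15 and Cdh5 it lies near 0. The Cdh15 probe was above background in Cy3 on 9 of 9 arrays and that of Cdh5 on 3.

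The partners of both families were followed through lists. Of 25 tight junction partners, all tested, 6 fell and 2 rose, against 7.78% and 6.73% of all genes. Their median difference was -0.50, against -0.071 over all genes. Ocln, the strand protein occludin, fell by 1.57 (SE 0.31, adjusted p = 0.0134), at 2.66 ± 0.66 (SD, n = 5) in Fzd8-CRD cells and 4.23 ± 0.27 (SD, n = 4) in controls. The polarity genes Pard6b (-1.25) and Mpp5 (-0.68) and the adhesion molecule gene Jam3 (-0.70) also fell, while the polarity gene Pard3 (0.73) was among those that rose. Tjp1, which encodes the scaffold ZO-1, differed by 0.25 (adjusted p = 0.586).

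Of 20 adherens junction partners, 19 were tested, of which 3 rose and 2 fell, against 6.73% and 7.78% of all genes. Their median difference was 0.13. Pvrl1, which encodes nectin-1, rose by 1.34 (SE 0.15, adjusted p = 0.00276), and Ctnna1, which encodes alpha-catenin, by 0.87. Pvrl4, which encodes nectin-4, fell by 1.44 (SE 0.25, adjusted p = 0.00892), and Pvrl2, which encodes nectin-2, by 0.62. Ctnnb1, which encodes beta-catenin, differed by 0.10 (adjusted p = 0.615). Of 12 desmosome genes, 9 were tested, of which 1 rose and 1 fell, beside the same shares of all genes. Dsp, encoding desmoplakin, rose by 1.26 (adjusted p = 0.00534) and Dsc2, encoding a desmosomal cadherin, fell by 1.39 (adjusted p = 0.00781).

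Transcription factors known to act on these genes were also measured. Of 11 repressors of cadherins and claudins, 10 were tested, of which 1 rose and 1 fell, against 6.73% and 7.78% of all genes. Twist1 rose by 0.99 (adjusted p = 0.00957), Zeb1 fell by 1.03 (adjusted p = 0.00916), and Snai1 and Snai2 differed by 0.14 (adjusted p = 0.699) and -0.29 (adjusted p = 0.697). Of 16 epithelial activators, 14 were tested, of which 0 rose and 3 fell, beside the same shares of all genes. Those that fell were the splicing regulator gene Esrp1 (-1.58), the ETS factor gene Ehf (-1.42) and Hnf4a (-0.46), a factor of liver and gut epithelium.

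Markers of the cell types the sort could hold are given beside the members. Over all genes, 7.78% fell and 6.73% rose. Of 16 epithelial markers, all tested, Spint2 (1.69) and Krt5 (0.80) rose. The number that fell is not reported here. The list's median difference was -0.33, against -0.071 over all genes. Its median log2 ratio ran from 2.46 to 3.78 on the Fzd8-CRD arrays and from 3.16 to 3.79 on the control arrays. Epcam differed by -0.26 (adjusted p = 0.486) and Krt8 by -0.66 (adjusted p = 0.235). Of 14 fibroblast and pericyte markers, 3 fell and 0 rose, with list medians of -1.32 to -0.076 on the Fzd8-CRD arrays and -0.79 to 0.99 on the control arrays. Of 17 leukocyte markers, 1 fell and 0 rose, with medians of -0.41 to -0.062 and -0.26 to 0.56. Of 9 erythrocyte markers, 4 were tested and 3 fell, with medians of 0.077 to 1.02 and 2.76 to 6.74. Control replicate 2 gave the highest control median for the erythrocyte, leukocyte, and fibroblast and pericyte markers. For erythrocyte markers the other controls lay between 2.76 and 3.62. The part of these cell types in the differences of claudins and cadherins was not tested.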

How the data were processed

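Per the file headers, Agilent Feature Extraction (version 9.5.3.1) gave the spot intensity in each dye and a log10 ratio of Cy5 to Cy3, already corrected for background and dye. In the deposited series matrix, each array has a linear ratio that, as log2, had a correlation of 1 with the scanner's. Its median lay between 0.833 and 0.954. The labels disagree on whether the reference was mouse, pooled or human RNA, so no ratio is read as a level. Whether the same reference RNA was on the slides of both groups was not established. A change of reference between the groups would enter every difference of ratios.

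Each array held 45018 spots, with 1639 controls, 1229 outlier spots left out over all arrays and 0 saturated. Background was corrected by normexp (offset 50) and dyes by loess within arrays in limma 3.58.1 (R 4.3.3, with version 1.17.8 of data.table), and spots of 1 probe were averaged. Kept were probes (65.2%) that 4 or more arrays showed well above background in Cy5. The brightest probe stood for a gene, as it did for 6073 genes with several. The offset makes differences of dim genes smaller. Groups, from the treatment labels, were compared with limma (lmFit and eBayes), Benjamini-Hochberg over 18400 genes, threshold 0.05. Replicate numbers follow accession order. On simulated data for this comparison of 18400 genes, 4.48%, 44.8% and 89.4% of changes of 0.5, 1 and 2 log2 units were recovered. Changes were put into 67, 67 and 66 genes, and 8 other genes were called. The adjusted p depends on how many genes change, and 2669 were called in the data, so these rates need not hold there. The number of arrays limits the precision. Gene names are those of the files, and 47 member probes matched RefSeq accessions, with 0 changes of symbol. List genes with an older name in the files were matched through RefSeq. RefSeq promoters are on another build than the probe positions (mm8) and were not joined to them by coordinates.

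The members and gene lists were chosen with earlier results of these data known. Named by rule were all members past the threshold, a claudin and a cadherin set, up to 4 list genes a direction by smallest p and fixed defining markers. Ctnnb1, Tjp1, Snai1 and Snai2 were named outside that rule, after their values were seen. A result of 1 list gene is not reported here. The alternatives were for background correction, dye normalization, the deposited ratio, Cy5 alone, filters, gene names, probes, array weights, slide, similar arrays and each array left out. They are not independent checks. The deposited and scanner ratios correlated at 1. For a gene with 1 probe, bright on all arrays, the filter, name and probe settings refit the same ratios. The slide setting cannot separate slide from treatment.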

Additional observations from a re-analysis of the deposited data

Results flagged for a closer look

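In 52 groups of array values over the 26 genes tested, the highest or lowest array stood apart from its group in 4, and chance alone marks about 1 in 20 such groups. Cldn3 on Fzd8-CRD replicate 5 was at 4.75, with the nearest array of the group at 5.60. Cldn23 on the same array was at 0.69, with the nearest at 1.93. Cdh20 on Fzd8-CRD replicate 2 was at 0.42, with the nearest at 0.14. Cldn14 on control replicate 2, the array least like the others, was at 1.23, with the nearest control at 0.16.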

How the results depend on the processing

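Of the 9 members whose ratio fell and Cdh2, which rose, Cdh15 passed under every alternative. No paired analysis was possible because replicate numbers follow accession order and pair no arrays. Against 7 claudins that fell, the scanner's log ratio gave 2, the deposited ratios 1, median centring 4, scaling between arrays 1, Cy5 alone 3 and averaging the closest pair of arrays of each group 1. Against 2 cadherins that fell, the scanner's log ratio, the deposited ratios, scaling and averaged pairs each gave 1. Against 1 cadherin that rose, the scanner's log ratio and the deposited ratios gave 3, array weights and slide as a random block (consensus correlation -0.17) 2, and median centring, scaling, no filter on dim probes and averaged pairs 0. Against 2669 genes called (1238 higher, 1431 lower), median centring gave 621 (316 and 305), array weights 6230 (2784 and 3446), the slide block 5546 (2503 and 3043), averaged pairs 350 (132 and 218) and Cy5 alone 1859 higher. Leaving out 1 array gave 1350 to 3119 genes (634 to 1369 higher, 716 to 1750 lower), 1892 to 4628 probes, 3 to 7 claudins and 1 to 2 cadherins lower, and 0 to 0 claudins and 0 to 1 cadherins higher. Without control replicate 2, Cldn4 (-1.02, adjusted p = 0.0598) and Cdh2 (1.24, adjusted p = 0.0719) lost the call and Cldn12 gained it.

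These values changed sign, none of them past the threshold. With the scanner's log ratio and the deposited ratios they were Cdh1 (0.34), Cdh22 (-0.28), Cldn1 (0.050), Cldn14 (0.21), Cldn23 (0.20) and Cldn4 (0.88). After scaling they were Cdh1 (2.37), Cldn4 (0.94) and Cldn7 (1.43). With array weights they were Cdh10 (-0.098) and Cldn14 (0.011), with the mean of probes Cdh11 (-0.14), and in Cy5 alone Cldn13 (-0.24) and Cldn3 (-0.71). With averaged pairs they were Cldn13 (-0.020) and Cldn3 (-0.10), and with no background correction Cldn13 (-0.000397). Leaving out 1 array gave Cdh10 between -0.030 and 0.25, Cldn13 between -0.052 and 0.14, Cldn14 between -0.37 and 0.016 and Cldn3 between -0.028 and 0.39. The cause of these changes was not tested. Members near background in either dye limit what the ratios can show.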
